A study of Mus musculus with 3 samples.

Results

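Nuclei with transcripts of a fibroblast and adipocyte progenitor gene list were few in the brown adipose tissue (BAT) of mice when single nuclei were sequenced, at 178 of 36281 kept nuclei (0.491%, exact 95% binomial interval 0.421 to 0.568%). They were chosen by their own unique molecular identifier (UMI) counts, so the genes of the list are a description and not a finding. A nucleus was kept if 200 or more genes were detected in it and mitochondrial UMIs were no more than 50%. It became a member with at least 3 UMIs over Pdgfra, Dcn, Col1a1, Col1a2, Col3a1, Clec3b, Pi16 and Smoc2, if that sum was at least 2 times each of an endothelial, an adipocyte and a mural list sum. The members numbered 45 of 11792 kept nuclei in the untreated library (0.382%, 0.278 to 0.510%), 73 of 14027 in the sham-operated library (0.520%, 0.408 to 0.654%) and 60 of 10462 in the denervated library (0.574%, 0.438 to 0.738%).

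All 3 libraries came from adult WT mice of the C57Bl6 strain, given as 8-week-old males in the study's methods. They were non-treatment BAT, BAT after sham operation, and BAT after denervation taken at day 3, in which the intercostal nerves of the left side had been cut. A legend of the study adds that the denervated mice received tamoxifen. No gene deletion is given in the labels of the groups used here, though the run name of the denervated library begins with nKO. The WT label was followed. The untreated and the denervated library each pooled 20 mice, while the number of mice behind the sham library is not given in the sources used here. The nuclei were isolated from the floating layer of digested BAT, which holds adipocytes and fragments of vessels, and were sorted on a DNA dye. The pelleted stromal-vascular cells, where most stromal cells of adipose tissue are usually collected, were not part of the input, so the members were those that stayed with the floating layer.

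Fibroblasts and adipocyte progenitors of fat share PDGF receptor alpha and fibrillar collagens. Progenitors marked by Dpp4 and Pi16 are held to lie in the interstitium around the fat lobules, while committed preadipocytes marked by Col15a1 and Lpl lie among adipocytes and vessels. Nerves also run through BAT with connective tissue and Schwann cells of their own, and Schwann cells too can express collagen genes.

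With 1 library per condition there was no replicate check, so conditions were not tested against each other and p-values are absent. Intervals throughout are exact 95% intervals that cover counting error alone, nuclei of 1 library are not replicates, and levels are CPM, a gene's UMIs summed over the nuclei named and scaled to the same total in every group. The members held 142219 UMIs, 47107 of them untreated, 50248 sham and 44864 denervated. The median UMI number of a member was 992 in the untreated library, 623 in the sham library and 635.5 in the denervated library. The libraries held 14971579, 14725864 and 9420030 UMIs in that order, and mitochondrial UMIs made up 4.73%, 6.10% and 2.86% of the members' UMIs. Between 251 and 278 cell barcodes occurred in each pair of libraries, but 0 of the barcodes that 2 libraries shared were members in both.

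The rule left out 222 of the 400 kept nuclei that had at least 3 UMIs of the fibroblast list. Of these, 171 failed against the mural list, 74 against the adipocyte list and 53 against the endothelial list, some against several. Of the members, 35 sat at the minimum of exactly 3 UMIs, 2 of them untreated, 20 sham and 13 denervated. Just outside, 6 untreated, 28 sham and 19 denervated nuclei met the ratios with 2 UMIs of the list. Among the members, 82 had no UMI of the endothelial, adipocyte or mural lists. No doublet caller was run, so a member with UMIs of another list may hold more than a single nucleus, which was not tested.

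Collagens carried most of the UMIs on which the members were chosen. Col1a2, a chain of collagen I, gave 479 UMIs in 132 members, Col3a1, the chain of collagen III, 408 UMIs in 139 members, and Col1a1, the other chain of collagen I, 284 UMIs in 99 members. Dcn, a small matrix proteoglycan, had 155 UMIs in 67 members. Pdgfra, the PDGF receptor that defines stromal progenitors (chromosome 5, 75152292 to 75198215, plus strand, GRCm38), had 82 UMIs in 49 members. Clec3b, or tetranectin, had 89 UMIs in 43 members and Smoc2, a matricellular protein, 42 UMIs in 27 members. Pi16, the peptidase inhibitor that marks interstitial progenitors, was found in 8 members only, with 43 UMIs of which 24 lay in a single untreated nucleus. Detection in other nuclei was limited by the rules themselves, since the other classes had to hold at least 2 times as many UMIs of their own list, so the shares are a description. Pdgfra was seen in 27.5% of members against 0.0993% of endothelial, 0.149% of adipocyte and 0.0406% of mural nuclei chosen by the mirrored rule, and Dcn in 37.6% against 0.240%, 0.269% and 0.0812%. Col3a1 was in 78.1% of members and 19.3% of mural nuclei.

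The label held for a part of the members only. Of the 178 members, 96 (53.9%, 46.3 to 61.4%) had UMIs of Pdgfra, Dcn, Clec3b, Pi16 or Smoc2 that were not outweighed by Schwann genes, and are called stroma-marked. A further 44 (24.7%, 18.6 to 31.7%) had at least 3 UMIs of a list of 7 Schwann genes, among them Mbp, Sox10, Cdh19, Scn7a and Cadm2, and at least 2 times as many of these as of the 5 rule genes that are not collagens. They are called Schwann-marked. The other 38 (21.3%, 15.6 to 28.1%) entered through Col1a1, Col1a2 and Col3a1 alone and are called collagen-only. These subsets were drawn after the values had been seen, and the genes that drew them are no finding between them. Any UMI of the 5 rule genes that are not collagens was found in 71 of the 101 members with 0 Schwann-list UMIs, in 24 of the 32 members with 1 or 2 and in 1 of the 45 members with at least 3. Schwann-list UMIs thus did occur in stroma-marked nuclei.

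**Figure D1:**
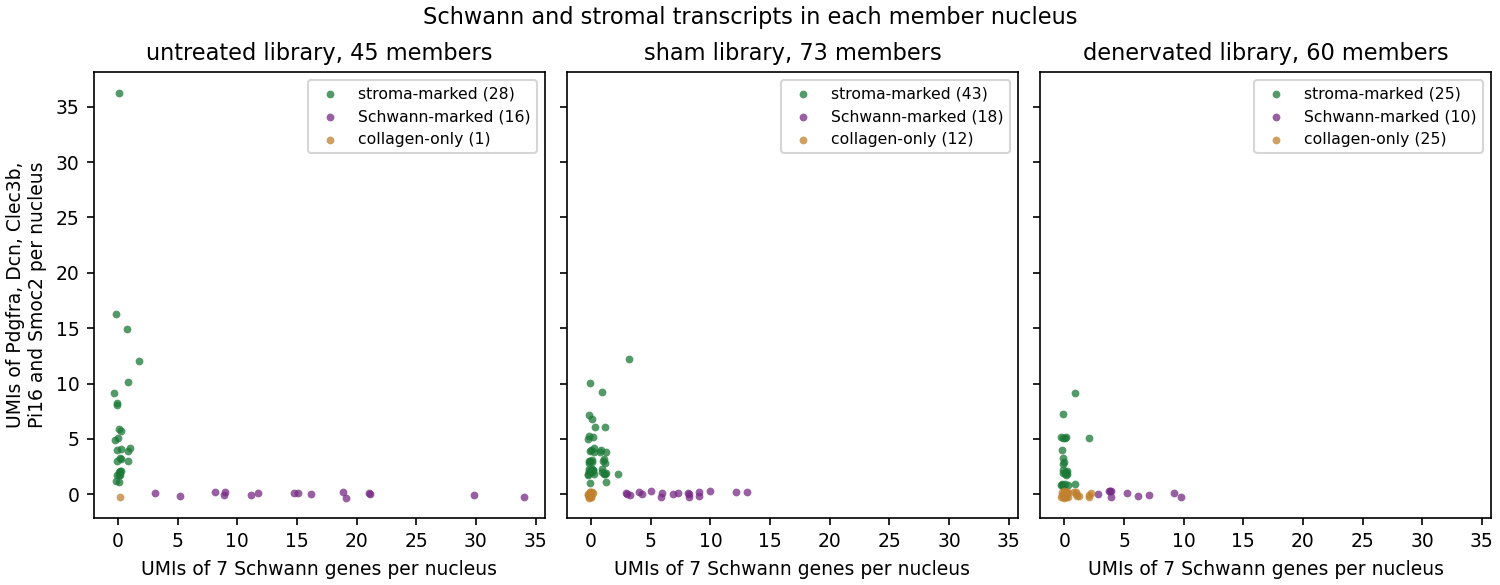
Each point is a member nucleus, with its UMIs of the Schwann list on the x axis and its UMIs of the 5 rule genes that are not collagens on the y axis, both jittered, by library. Of the members with a UMI of the 5 genes, 71 had 0 Schwann-list UMIs, 24 had 1 or 2 and 1 had at least 3.

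The subsets took different shares of the 3 libraries. Stroma-marked nuclei were 28 of 45 untreated, 43 of 73 sham and 25 of 60 denervated members. Schwann-marked nuclei were 16, 18 and 10 of these members, and collagen-only nuclei 1, 12 and 25. As shares of members, stroma-marked nuclei went from 62.2% (46.5 to 76.2%) in the untreated library to 41.7% (29.1 to 55.1%) in the denervated library, and collagen-only nuclei from 2.22% (0.0562 to 11.8%) to 41.7% (29.1 to 55.1%). As little as 1 UMI of the 5 rule genes that are not collagens kept a nucleus out of the collagen-only subset. Members had a median of 992 UMIs untreated, 623 sham and 635.5 denervated, and the part of depth in these shares was not tested. Of all kept nuclei, stroma-marked nuclei made up 0.237% untreated, 0.307% sham and 0.239% denervated. The larger number of denervated members than untreated ones therefore lay in the collagen-only nuclei, which are described last. Because subset shares differed by library, comparisons between libraries are given within subsets.

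**Figure D2:**
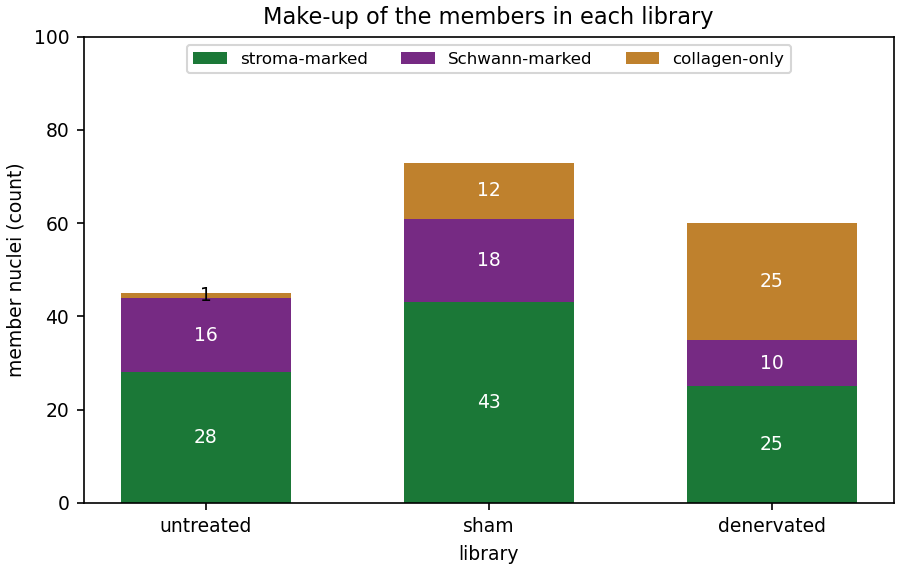
Bars give the number of member nuclei in each subset by library. Collagen-only nuclei numbered 1 in the untreated, 12 in the sham and 25 in the denervated library.

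Fibroblast markers that the rule did not use were high in the members. The 12 held-out markers summed to 8803 CPM (8322 to 9305) against 442 CPM in endothelial, 228 CPM in adipocyte and 1273 CPM in mural nuclei. The contrast of members with other nuclei is the one the rule itself made, so it gets no test, and nothing is read from its background: 29.1% of 1682 genes with at least 20 UMIs in the members were at least 2-fold higher there with an interval above 0 on the log2 scale. All 11 of the held-out markers with that many UMIs were among them. The sum was highest in the stroma-marked nuclei, at 12246 CPM, and was 4785 CPM in Schwann-marked and 3572 CPM in collagen-only nuclei. By library, over all members with their differing make-up, it was 10381 CPM untreated, 10508 CPM sham and 5238 CPM denervated. Within the stroma-marked nuclei it was 13085, 13138 and 9245 CPM in the same order, and the denervated collagen-only nuclei held 3440 CPM.

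The held-out markers divided by subset. Bicc1, an RNA-binding protein, had 101 of its 112 UMIs in stroma-marked nuclei and 2 in Schwann-marked nuclei, and Lama2, the laminin alpha 2 chain, had 126 of 146 against 11. Col6a3, a chain of collagen VI, stood at 1477 CPM in stroma-marked, 297.4 CPM in Schwann-marked and 1055 CPM in collagen-only nuclei. Gsn, the actin-severing protein gelsolin, was at 3090, 1190 and 649.5 CPM in the same order. Abca8a, an ABC lipid transporter, did not divide this way, with 2395 CPM in stroma-marked and 2730 CPM in Schwann-marked nuclei. Abca8a thus sat on both sides of the division that Pdgfra and the Schwann list drew.

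Of the 15 genes outside the rule lists with the highest ratio of members to other nuclei, among genes with at least 50 UMIs in the members, 9 had most of their UMIs in Schwann-marked nuclei. Kcna1, Kcna2 and Kcna6, which encode voltage-gated potassium channels of the Kv1 family, had 56 of 57, 185 of 207 and 70 of 75 of their UMIs in the 44 Schwann-marked nuclei. Fgl2, fibrinogen-like protein 2, had 114 of 127 there, Lgi4, a secreted ligand in peripheral myelination, 47 of 54, and Gpm6b, a myelin-related membrane glycoprotein, 62 of 93. None of these 6 genes was used to draw the subset. Cdh19, also among the 15, is on the Schwann list and was used. Gas7, a growth arrest gene expressed in neural tissue, had 36 of 55. The genes of the 15 that did not have most of their UMIs there were Timp2, Lama2, Bicc1, Col15a1, Abca8b and Tmeff2. Tmeff2, a transmembrane protein with follistatin domains, had 53 of 56 UMIs in stroma-marked nuclei, which held 80595 of the members' 142219 UMIs. Timp2, a metalloproteinase inhibitor, had 93 of 140 UMIs in stroma-marked nuclei and divided less. It was at 1154 CPM in stroma-marked, 946.2 CPM in Schwann-marked and 487.1 CPM in collagen-only nuclei. The Schwann list itself summed to 3298 CPM (3006 to 3610) in the members, against 52.6 CPM in endothelial, 206 CPM in adipocyte and 62.7 CPM in mural nuclei. Without the Schwann-marked nuclei it was 390 CPM, over the same 7 genes.

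**Figure D3:**
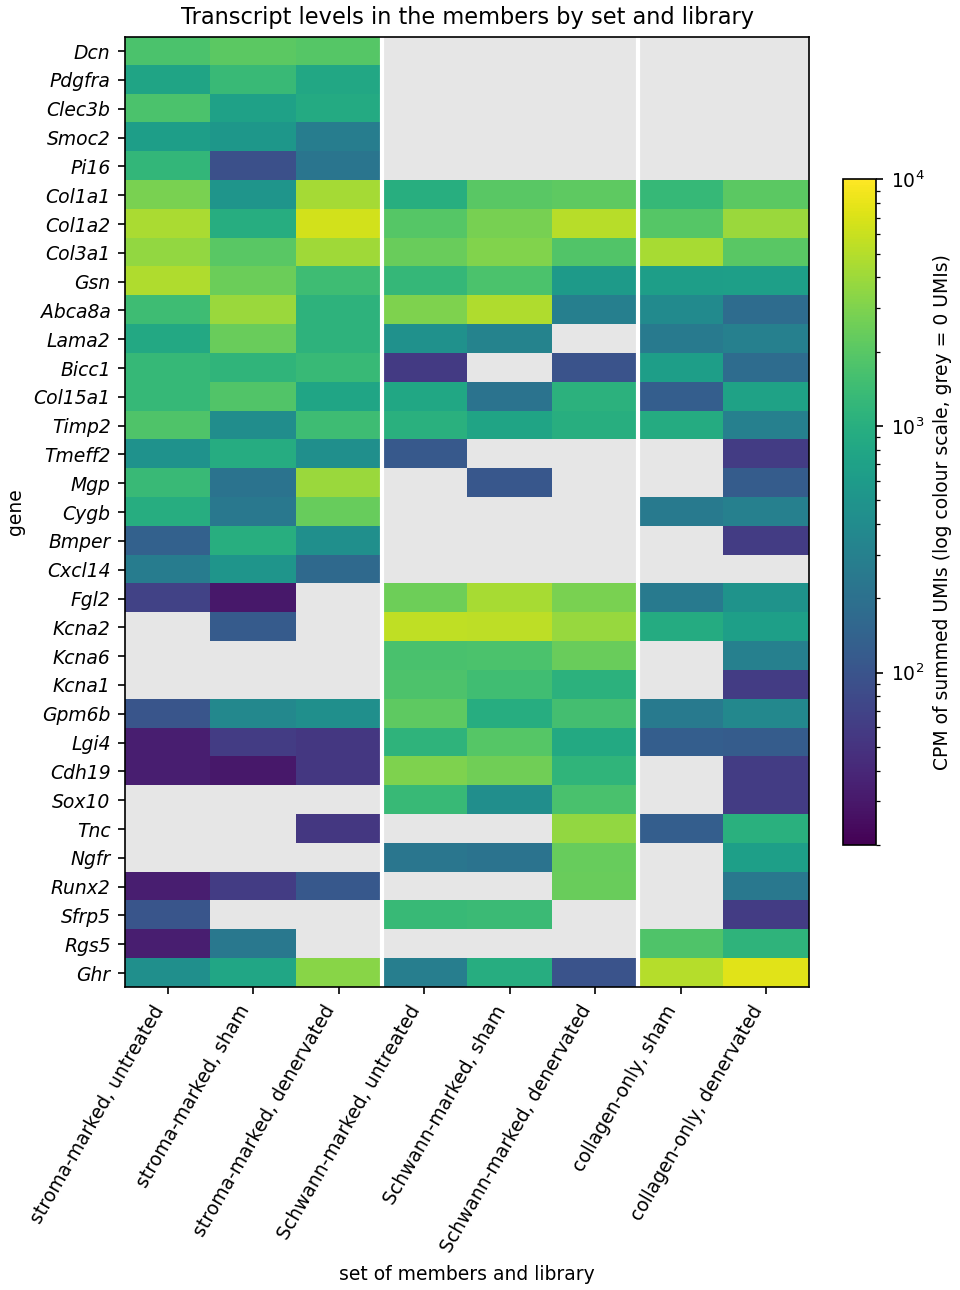
Colours give CPM, on a log colour scale, of named genes (rows) in the subsets by library (columns), with grey where no UMI was counted. The untreated collagen-only nucleus is not drawn. Kcna2 and Fgl2 are filled in the Schwann-marked columns and Bicc1 and Lama2 mostly in the stroma-marked columns.

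Matrix genes had higher sums in the members than in the other classes. The 28 collagens outside the rule summed to 10610 CPM in the members, against 2459 CPM in endothelial and 5262 CPM in mural nuclei, and 13 of the 14 with at least 20 UMIs in the members were above 2-fold. Matrix glycoproteins summed to 12917 CPM, with 18 of 21 above 2-fold, and were at 9267 CPM in mural nuclei and 10392 CPM in collagen-only members. Genes of matrix turnover summed to 5766 CPM, with 10 of 10 above, against 2389 CPM in mural nuclei. Over all genes, 490 of 1682 (29.1%) were above 2-fold. Col15a1, a basement membrane collagen of preadipocytes, stood at 1414 CPM in stroma-marked, 729.9 CPM in Schwann-marked and 527.7 CPM in collagen-only nuclei, and at 6.74 CPM in mural nuclei. Sparc, a collagen-binding glycoprotein, had its highest level in the Schwann-marked nuclei, 8462 CPM, with 2941 CPM in the stroma-marked nuclei and 3732 CPM in mural nuclei. Lum, a small proteoglycan, had all 30 of its UMIs in stroma-marked nuclei, against 2.07 CPM in mural nuclei. Unlike Col15a1, the basement membrane chain Col4a1 was not particular to the members, at 1512 CPM there and 1580 CPM in mural nuclei.

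Genes of interstitial progenitors were scarce. Dpp4, the surface peptidase that names this state, had 4 UMIs in 4 of the 96 stroma-marked nuclei, Pi16 was in 8 of them, and 1 nucleus had both. The 16-gene Dpp4 progenitor list summed to 1076 CPM in the members, against 495 to 604.2 CPM in the other classes, with 2 of its 3 genes with enough UMIs above 2-fold. By subset it was at 1092 CPM in stroma-marked, 1325 CPM in Schwann-marked and 649.5 CPM in collagen-only nuclei. The sum was thus not particular to the stroma-marked nuclei. The committed preadipocyte list of 12 genes summed to 6806 CPM, below the 13577 CPM of endothelial nuclei. Of its 7 genes with enough UMIs 2 were higher and 2 lower, where 490 of all 1682 genes (29.1%) were higher and 97 lower. Fabp4, the fatty acid binding protein, was at 878.9 CPM against 4155 CPM in endothelial nuclei. The third list, of genes reported in CD142-positive (Areg) stromal cells, summed to 2341 CPM in the members. Its 2 leading genes, Mgp and Cygb, stood at 1464 and 980.2 CPM in the stroma-marked nuclei and at 1520 and 1310 CPM in mural nuclei.

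UMIs of other cell types' markers were found in the members, at levels that were in part no higher than in barcodes with fewer than 200 genes, which were left out of the members. The held-out mural list summed to 485.2 CPM in the members against 6640 CPM in mural nuclei, the held-out adipocyte list to 801.6 CPM against 3864 CPM in adipocyte nuclei, and the held-out endothelial list to 365.6 CPM against 2568 CPM in endothelial nuclei. In the barcodes left out, these lists were at 288.7, 784.1 and 1862 CPM, so over all members the adipocyte list was near that level, the endothelial list below it and the mural list above it. The subsets differed. In stroma-marked, Schwann-marked and collagen-only nuclei the adipocyte list was at 769.3, 270.3 and 1705 CPM. The mural list was at 248.2, 189.2 and 1705 CPM and the endothelial list at 583.2, 108.1 and 40.6 CPM. Immune markers gave 5 UMIs over 6 genes and mesothelial markers 3 UMIs over the 4 genes found in the tables, in 178 nuclei. The cell cycle list gave 15 UMIs over 14 genes. Of 14 lipid genes with enough UMIs, 10 were more than 2-fold lower than in the sum of the other kept nuclei and 1 was higher, against 97 of all 1682 genes lower. The list summed to 9570 CPM in the members, 36318 CPM in adipocyte, 16253 CPM in endothelial and 6070 CPM in mural nuclei.

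In the stroma-marked nuclei, 20.2% of 436 genes with at least 20 UMIs over the sham and untreated libraries were past the fold. Here past the fold means that the log2 ratio was 1 or more in either direction and its interval left out 0. The share was 17.3% of 307 genes for denervated over untreated and 27.5% of 342 genes for denervated over sham, and the 3 comparisons share their libraries. The median gene was shifted by 0.14, 0.12 and -0.04 on the log2 scale, against which the ratios below can be read. Over all members, without subsets, 20.7% of 960, 19.6% of 907 and 23.7% of 941 genes were past the fold in these comparisons. The smallest libraries held 25 and 28 stroma-marked nuclei, so a few nuclei can set a value.

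The collagens of the rule are given first, as a description, since membership needed 3 UMIs of a sum that includes them and nothing between libraries is read from their levels. Col1a1 (chromosome 11, 94936224 to 94953042, plus strand) had 84 UMIs in 19 of 28 untreated nuclei (2862 CPM, 2283 to 3544), 17 UMIs in 12 of 43 sham nuclei (512 CPM, 298 to 820) and 79 UMIs in 16 of 25 denervated nuclei (4374 CPM, 3463 to 5451). Col1a2 had 134, 32 and 117 UMIs. Col3a1 had 108, 68 and 74 UMIs, or 3680, 2049 and 4097 CPM. All 3 were lowest in the sham library, Col3a1 by the least. When each nucleus was thinned to 500 UMIs, Col1a1 was in 13 of 25 untreated, 9 of 36 sham and 10 of 16 denervated nuclei.

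The collagens outside the rule summed to 11177 CPM untreated, 13741 CPM sham and 12512 CPM denervated (328, 456 and 226 UMIs). The log2 ratio was 0.30 (0.09 to 0.51) for sham over untreated, 0.16 (-0.09 to 0.41) for denervated over untreated and -0.14 (-0.37 to 0.10) for denervated over sham. In sham over untreated 2 of 11 genes were past the fold upward and 1 downward, near the 20.2% of all genes. Col5a3, a fibrillar chain of collagen V named after its values were seen, was highest in the sham library, with 20 UMIs in 12 untreated nuclei (682 CPM, 416 to 1053), 69 UMIs in 32 sham nuclei (2079 CPM, 1618 to 2631) and 11 UMIs in 9 denervated nuclei (609 CPM, 304 to 1090).

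Mgp and Cygb, which the rule did not use, were lowest in the sham library and highest in the denervated library. Mgp, matrix Gla protein (chromosome 6, 136872435 to 136875823, minus strand), had 40 UMIs in 10 untreated nuclei (1363 CPM, 974 to 1856), 7 UMIs in 4 sham nuclei (211 CPM, 84.8 to 435) and 71 UMIs in 12 denervated nuclei (3931 CPM, 3070 to 4958). The intervals of the 3 libraries did not overlap. The log2 ratio was -2.69 (-4.10 to -1.52) for sham over untreated, 1.53 (0.95 to 2.12) for denervated over untreated and 4.22 (3.10 to 5.59) for denervated over sham. Cygb, the stromal globin cytoglobin, had 28, 8 and 43 UMIs, with ratios of -1.98, 1.32 and 3.30. Mgp and Cygb met in 18 of the 96 nuclei, out of 26 and 29. Both genes are high in mural nuclei too, and in the stroma-marked nuclei without UMIs of the other lists Mgp was at 580, 484 and 1919 CPM (6, 6 and 15 UMIs). There the excess in the denervated library remained past the fold over sham, and the sham library was no longer below the untreated one by that measure (log2 ratio -0.26). Held-out adipocyte markers had the same order in all stroma-marked nuclei, at 750, 512 and 1273 CPM (22, 17 and 23 UMIs). Mgp and Cygb stood at 23.3 and 13.1 CPM in adipocyte nuclei. The part of adipocyte transcripts in these differences was not tested.

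A second set of genes, chosen by their ratios, was highest in the sham library. Abca8a (chromosome 11, 110025634 to 110095978, minus strand) had 43 UMIs in 17 untreated nuclei (1465 CPM, 1060 to 1974), 130 UMIs in 37 sham nuclei (3917 CPM, 3273 to 4651) and 20 UMIs in 8 denervated nuclei (1107 CPM, 676 to 1710). Sham nuclei were above both others, with log2 ratios of 1.42 (0.91 to 1.95) over untreated and -1.82 (-2.58 to -1.14) for denervated over sham. Lama2 was also highest in sham nuclei, at 852, 2441 and 1107 CPM. Bmper, a secreted regulator of BMP signalling (chromosome 9, 23223076 to 23485200, plus strand), had 4 UMIs in 4 untreated nuclei, 33 UMIs in 15 sham nuclei and 8 UMIs in 7 denervated nuclei, a log2 ratio of 2.87 (1.38 to 4.83) for sham over untreated. Pappa, a metalloproteinase that cleaves IGF-binding proteins, had 2, 20 and 1 UMIs. Colec12, a scavenger receptor, had 12, 30 and 0 UMIs, and Lvrn, a membrane aminopeptidase, 6, 36 and 2 UMIs. In the nuclei without UMIs of other lists, Abca8a was again highest in sham nuclei, at 1258, 3628 and 768 CPM. Held-out endothelial markers were also highest in the sham stroma-marked nuclei, with 8, 33 and 6 UMIs (273, 994 and 332 CPM) and a log2 ratio of 1.87 (0.72 to 3.19) for sham over untreated and -1.58 (-3.13 to -0.31) for denervated over sham. So were the Schwann list, at 239, 573 and 221 CPM (7, 19 and 4 UMIs), and the held-out mural list, at 136, 422 and 111 CPM (4, 14 and 2 UMIs). The held-out adipocyte list was lowest in sham nuclei, at 750, 512 and 1273 CPM. The part of these lists in the genes above was not tested. In endothelial nuclei Abca8a was at 15.7 CPM, Lama2 at 10.8 CPM and Bmper at 9.07 CPM.

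Mgp and Bmper were each seen in 26 of the 96 stroma-marked nuclei, and 2 nuclei had both. Both of these were sham nuclei, where 4 had Mgp and 15 Bmper, while none was shared among the 10 and 4 untreated or the 12 and 7 denervated nuclei. Bmper met Abca8a in 19 of its 26 nuclei, and Abca8a was in 62 of the 96. Bmper met Cxcl14, a chemokine of stromal cells, in 7 nuclei out of the 16 with Cxcl14. In sparse counts such overlaps are a description only.

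Bicc1, Col6a3 and Slit3, which the rule did not use, had ratios near 0 in the stroma-marked nuclei. Bicc1 had 38, 39 and 24 UMIs, or 1295, 1175 and 1329 CPM. Col6a3 had 1533, 1477 and 1384 CPM, and Slit3, a secreted guidance ligand, had 36, 38 and 23 UMIs, all with ratios within 0.2 of 0 on the log2 scale. Dcn, Pdgfra and Clec3b drew both the members and the stroma-marked nuclei, so their levels are a description. Dcn was at 1738 CPM untreated, 2079 CPM sham and 1938 CPM denervated, Pdgfra at 750, 1356 and 830 CPM, and Clec3b at 1704, 693 and 886 CPM. Gsn was lower in the denervated than in the untreated nuclei, with 26 against 140 UMIs and a log2 ratio of -1.73 (-2.39 to -1.12). It was seen in 18 of 28 untreated, 28 of 43 sham and 11 of 25 denervated stroma-marked nuclei. Over all members Gsn was at 3439 CPM untreated, 2070 CPM sham and 958 CPM denervated, so the sham library lay between the others there.

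Lists added to this picture in the stroma-marked nuclei. The Areg list summed to 4737 CPM untreated (139 UMIs), 934 CPM sham (31 UMIs) and 7972 CPM denervated (144 UMIs), a log2 ratio of -2.34 (-2.95 to -1.77) for sham over untreated, 0.75 (0.40 to 1.10) for denervated over untreated and 3.09 (2.53 to 3.70) for denervated over sham. Mgp and Cygb gave 71 and 43 of the 144 denervated UMIs, 40 and 28 of the 139 untreated ones and 7 and 8 of the 31 sham ones, and in nuclei without UMIs of the other lists the log2 ratio of Mgp for sham over untreated was -0.26. Of the rest of that list, Fmo2, a flavin monooxygenase, had 14, 0 and 10 UMIs and Gdf10, a TGF-beta family ligand, 11, 0 and 4. F3, which encodes CD142 itself, did not follow the sum. Over all members it was lowest in the denervated library, with 12, 6 and 2 UMIs (255, 119 and 44.6 CPM). Meox2 had 23, 8 and 15 UMIs over all members. The held-out fibroblast list was lower in denervated than in untreated nuclei by a summed log2 ratio of -0.50 (-0.77 to -0.24), with 1 of its 9 genes with enough UMIs past the fold, against 17.3% of all genes. That gene was Gsn, which gave 140 of the list's 384 untreated UMIs and 26 of its 167 denervated ones, and the list's median gene was at -0.15. Of the matrix glycoproteins, 4 of 10 were past the fold downward and 1 upward in sham over untreated, where 40 of all 436 genes were downward and 48 upward. In denervated over sham 3 of 8 were upward and 1 downward, where 47 of all 342 genes lay past the fold in each direction, and in denervated over untreated 0 of 10 were past it. The sum of the immediate early genes, which rise with tissue handling, was higher in both operated libraries, by 0.70 (0.35 to 1.06) in sham and 1.36 (0.9997 to 1.73) in denervated over untreated. Past the fold were 2 of 6 genes in sham (Egr1 and Fosb, all upward) and 2 of 4 in denervated over untreated (Egr1 and Jund), against 20.2% and 17.3% of all genes, and the median gene in sham was at 0.17. The sum of the heat shock genes was higher by 0.90 (0.58 to 1.24) and 0.86 (0.48 to 1.23). There 2 of 5 genes were past the fold upward in sham, Hsp90aa1 and Hspa1b, while in denervated over untreated the same 2 of 4 were upward and Hspa5, with 3 against 29 UMIs, was downward. These genes of both lists, named after their values were seen, include Fosb with 2, 25 and 14 UMIs and Hspa1b with 9, 59 and 17. The part of these stress genes in the other differences was not tested.

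A few values rested on single nuclei. In stroma-marked nuclei Ghr, the growth hormone receptor, had 13, 26 and 60 UMIs, but 36 of the 60 lay in 1 denervated nucleus. Pi16 had 36, 3 and 4 UMIs, with 24 of the 36 in 1 untreated nucleus. Car3, a carbonic anhydrase abundant in adipocytes, had 4, 27 and 28 UMIs in 3, 8 and 7 nuclei, and adipocyte nuclei held it at 2679 CPM.

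In the Schwann-marked nuclei 21.4% of 159 genes were past the fold for sham over untreated, 31.3% of 147 for denervated over untreated and 43.2% of 81 for denervated over sham. The median gene was shifted by -0.15, -0.33 and -0.32 on the log2 scale. These nuclei numbered 16, 18 and 10, with 17418, 9339 and 10233 UMIs. The genes named below were chosen by their ratios within this subset, an extension of the rule made after the data were seen.

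Tnc, Ngfr and Runx2 had more UMIs in the denervated Schwann-marked nuclei than in those of the other libraries. Tnc, the matrix glycoprotein tenascin C (chromosome 4, 63959785 to 64047015, minus strand), had 0 UMIs in 16 untreated nuclei, 0 in 18 sham nuclei and 37 UMIs in 8 of 10 denervated nuclei (3616 CPM, 2546 to 4984). Against a floor of 3 counts over the group, the log2 ratio was at least 4.39 over untreated and at least 3.49 over sham, and the exact intervals, which also count the error of the denervated UMIs, began at 4.02 and 3.12. Ngfr, the p75 neurotrophin receptor of immature and non-myelinating Schwann cells (chromosome 11, 95568818 to 95587735, minus strand), had 4 UMIs in 2 nuclei, 2 UMIs in 2 nuclei and 24 UMIs in 8 nuclei, for 230, 214 and 2345 CPM. Its log2 ratio was 3.35 (1.81 to 5.34) over untreated and 3.45 (1.44 to 6.58) over sham. Runx2, a transcription factor of bone formation, had 0, 0 and 25 UMIs, the latter in 6 nuclei. Igfbp5, an IGF-binding protein, had 0, 2 and 27 UMIs, with 14 of the 27 in 1 nucleus, and Slitrk6, a neuronal transmembrane protein, had 6, 2 and 18 UMIs. Thinned to 500 UMIs, Tnc was in 0 of 15 untreated, 0 of 6 sham and 6 of 10 denervated nuclei, and Ngfr in 2, 1 and 7 of them.

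Sfrp5, Sfrp1 and Abca8a went the other way. Sfrp5, a secreted WNT antagonist (chromosome 19, 42197971 to 42202252, minus strand), had 23 UMIs in 14 of 16 untreated nuclei (1320 CPM, 837 to 1981), 13 UMIs in 8 of 18 sham nuclei (1392 CPM, 741 to 2380) and 0 UMIs in 10 denervated nuclei. Taken at the floor of 3 counts, the log2 ratio of denervated over untreated nuclei was -2.17 or lower, with an exact interval that ended at -1.76. Sfrp1, of the same family, had 7, 10 and 0 UMIs. Abca8a had 53 UMIs in all 16 untreated nuclei, 45 UMIs in 15 sham nuclei and 3 UMIs in 2 denervated nuclei, with log2 ratios of -3.38 (-5.70 to -1.75) over untreated and -4.04 (-6.37 to -2.40) over sham. Abca8b, its paralog next to it, had 15, 20 and 0 UMIs, and reads of these 2 similar genes may have been shared in counting. Untreated and sham nuclei did not differ past the fold for Sfrp5 (0.08, -1.03 to 1.12) or Abca8a (0.66, 0.06 to 1.26).

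**Figure D4:**
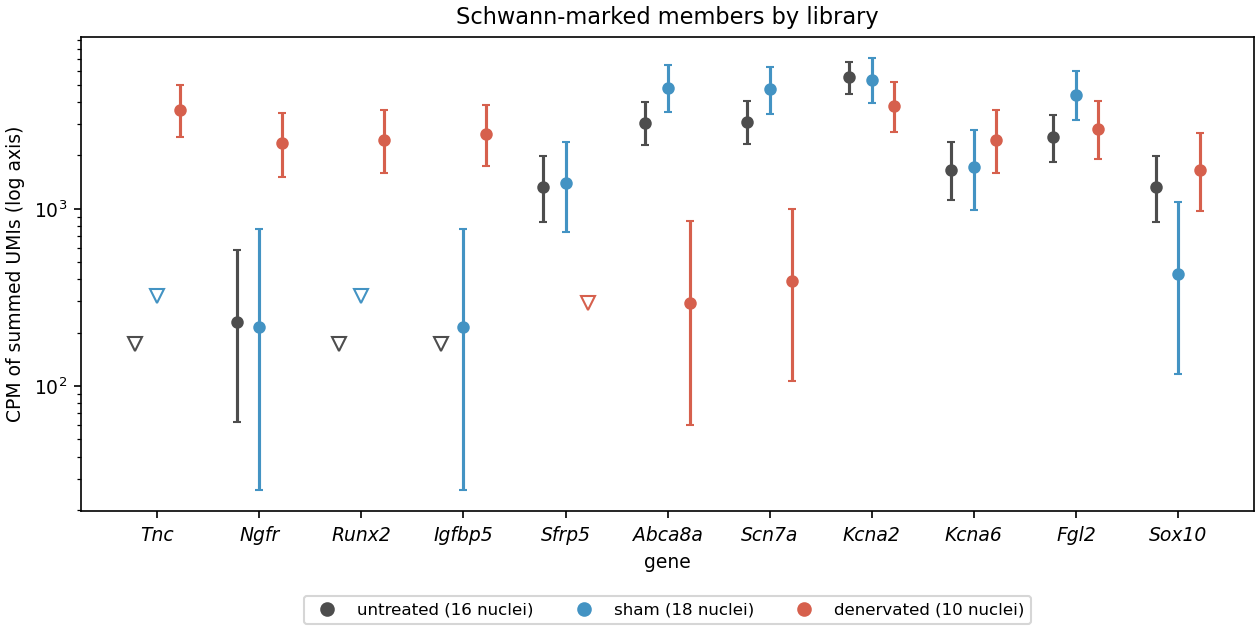
Points give the CPM of named genes in Schwann-marked nuclei by library on a log axis, with exact 95% Poisson intervals as bars and open triangles at a floor of 3 counts where no UMI was found. Tnc, Ngfr and Runx2 are highest in the denervated library, and Sfrp5 and Abca8a lowest.

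Kcna2, Kcna6, Fgl2 and Sparc differed less between libraries than the genes named above. Kcna2 had 96, 50 and 39 UMIs, for 5512, 5354 and 3811 CPM, and was in 16 of 16, 14 of 18 and 10 of 10 nuclei. Kcna6 had 29, 16 and 25 UMIs and Fgl2 44, 41 and 29, with no pair past the fold for either. Sparc was at 10162 CPM untreated, 7067 CPM sham and 6841 CPM denervated. Col1a2 had 34, 26 and 53 UMIs and Col1a1 17, 19 and 22, which is a description, since the Schwann-marked nuclei held 0 UMIs of the other 5 rule genes and became members through their collagen UMIs alone. Within the Schwann list, which selected these nuclei, Sox10, the lineage factor, had 23, 4 and 17 UMIs, and Scn7a, a sodium channel, had 54, 44 and 4. The sum of that list was lowest in the denervated nuclei, at 14181, 13385 and 5472 CPM (247, 125 and 56 UMIs), as a description. The held-out fibroblast list, which includes Abca8a, was lowest there too, at 5684, 7174 and 1075 CPM (99, 67 and 11 UMIs).

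Schwann-list nuclei that the fibroblast rule did not take in were counted for the same genes. They came from the same libraries, so they are no replicate of the members. Chosen by at least 3 UMIs of the Schwann list and at least 2 times each of the endothelial, adipocyte and mural sums, without use of the fibroblast list, 30 untreated, 107 sham and 23 denervated nuclei were found, of which 14, 90 and 15 were not members. In these non-members Tnc had 0, 1 and 15 UMIs, the last in 4 nuclei (1362 CPM), with 10 of the 15 in 1 nucleus. Ngfr had 1, 0 and 5 UMIs, and Runx2 had 0, 0 and 11, with 8 of the 11 in 1 nucleus. Sfrp5 had 3, 18 and 0, Sfrp1 had 5, 26 and 0, and Abca8a had 15, 189 and 1, over 10772, 51411 and 11016 UMIs in all. The directions of these 6 genes between the denervated library and the other 2 were the same as in the members. For Ngfr, Sfrp5 and Sfrp1, however, the untreated and denervated counts were 5 UMIs or fewer, near the floor of 3 counts. Kcna2 and Fgl2, which did not pass the fold in the members, had 23, 286 and 3 UMIs and 12, 99 and 0 UMIs there. Low counts in the denervated non-members were thus not particular to Sfrp5, Sfrp1 and Abca8a. The 15 denervated non-members also held 140 UMIs of Ghr and 47 of Car3, genes at 2834 and 2679 CPM in adipocyte nuclei, and the part of these in the other values was not tested. Pdgfra had 0 UMIs in all 3 libraries of these nuclei.

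The collagen-only nuclei were the least clear. Of 38, 1 was untreated, 12 sham and 25 denervated, with 343, 7723 and 16568 UMIs. In the denervated library 8 of the 25 had a UMI of the Schwann list, 8 had Tnc or Ngfr, with 28 UMIs, and 7 had Kcna2, Kcna6, Fgl2 or Gpm6b, while in the sham library 0, 1 and 2 of 12 did. Tnc had 17 UMIs in 6 of the denervated nuclei and Ngfr 11 UMIs in 5. UMIs of the mural lists were in 11 of 25 denervated and 7 of 12 sham nuclei, and UMIs of the adipocyte lists in 13 of 25 and 6 of 12. Rgs5, a pericyte gene, had 14 UMIs in the sham and 19 in the denervated nuclei, and Ghr 39 and 126. Held-out fibroblast markers were in 29 of 38. Signals of several kinds thus met in this subset.

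The study turned on Kitl, which encodes stem cell factor, its receptor Kit, and Ucp1, the uncoupling protein of brown fat. Kitl had 37 UMIs in 25 of 178 members, 260 CPM, against 1142 CPM in endothelial, 307 CPM in mural and 44.2 CPM in adipocyte nuclei. By library it was at 361 CPM untreated (17 UMIs), 179 CPM sham (9 UMIs) and 245 CPM denervated (11 UMIs), too few to tell the libraries apart. In barcodes with fewer than 200 genes Kitl was at 957 CPM, above its level in the members, so its UMIs there are not read as expression. Kit had 5 UMIs in 4 members. Ucp1 had 10 UMIs in 10 members (70.3 CPM), 3 untreated, 3 sham and 4 denervated, and stood at 332 CPM in adipocyte nuclei, 90.9 CPM in endothelial nuclei and 109 CPM in the barcodes with fewer than 200 genes.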

How the data were processed

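The authors deposited, per library, a table of UMI counts per cell barcode and gene from the BD WTA Rhapsody Analysis Pipeline (version 1.9, mouse build GRCm38 with GENCODE annotation, per the file headers of the untreated and denervated tables; the sham table has no header). The labels name the human build GRCh38 and Seurat 4.0.6; mouse gene symbols and headers were followed. The run name in the denervated header begins with nKO while the label says WT, and the label was followed. The counts are raw, hold no normalization and depend on depth. The authors' later removal of contaminating clusters and free RNA was not repeated.

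Counts were summed over nuclei, scaled to CPM, and given exact Poisson, binomial (Clopper-Pearson) or conditional binomial intervals at 95% in Python 3.11.15 with numpy 2.4.6, scipy 1.17.1, pandas 2.3.3 and matplotlib 3.10.9. Ratios between libraries used genes with at least 20 UMIs over the 2 libraries. The calculations were tested on simulated data, drawn for the summed members without spread between nuclei. Of the unchanged genes 2.38, 3.26 and 3.77% passed the fold there, for sham over untreated, denervated over untreated and denervated over sham. Such data cannot speak to values that a few nuclei set.

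Named were the 8 rule genes, up to 5 genes of most UMIs per list, the 15 highest over other nuclei, 5 per direction and pair of libraries, and Kitl, Kit and Ucp1. Some genes that this rule or the Schwann list holds are not reported here. Members, lists and subsets were chosen with earlier results of these data known.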

Additional observations from a re-analysis of the deposited data

Results flagged for a closer look

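Barcodes with fewer than 200 detected genes were left out of the members. Of 5358 such barcodes in the denervated library 4 met the fibroblast-list rule, against 1 of 1871 in the untreated and 0 of 988 in the sham library.

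Stroma-marked and Schwann-marked nuclei lay on opposite sides of 0 for 4 genes in the same pair of libraries, each past the 2-fold limit. These differences between the subsets were not tested. For sham over untreated, the log2 ratio of Col27a1, a fibrillar collagen chain, was -1.33 in stroma-marked and 1.40 in Schwann-marked nuclei, for the kinase gene Rock2 it was -1.22 and 1.54, and for Sh3pxd2a, a podosome scaffold, -1.762 and 1.899. For denervated over untreated, Col27a1 was at -2.62 and 1.20, but in stroma-marked nuclei with no UMI of the other lists it was at 0.40 (-3.38 to 4.19). For denervated over sham, Sh3pxd2a was at 2.46 and -1.98. Col1a1, at -2.48 and 1.06 for sham over untreated, is a gene of the rule, and Schwann-marked nuclei became members through collagens alone, so nothing is read from its values.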

How the results depend on the processing

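Of the 120 recomputed main values 54 moved by less than their counting interval or, for counts of genes, by less than 1.5 times. Of 1999 other recomputed values, of single genes and of gene lists, 1546 kept their reading. A gene past the fold did so by staying past it in the same direction. Any other value did so by staying within its counting interval. Another 304 were genes that no longer passed the fold or no longer had enough UMIs, 141 values left their interval and 8 turned direction. Dropping the minimum of UMIs changes no ratio, so its 227 gene values kept their reading by design. Alternatives by subset were added after seeing the data.

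The share of members in kept nuclei, in the order untreated, sham and denervated, was 0.271, 0.264 and 0.363% with at least 5 UMIs of the list, and 0.178, 0.228 and 0.277% with no UMI of the other lists. Thinning to 500 UMIs first gave 0.268% untreated and 0.328% sham. With at least 500 genes the shares were 0.404, 0.350 and 0.526%, so that sham was below untreated there, as with at least 5 UMIs. With 2 UMIs of the list the share was 0.720% sham and 0.755% denervated, and with a ratio of 4 it was 0.364 and 0.430%. The Schwann-marked share was 18.5% with at least 5 Schwann-list UMIs.

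The held-out fibroblast sum was 8022 CPM without the untreated, 7872 without the sham and 10446 without the denervated library, 9847 CPM with no UMI of the other lists, 9357 CPM with at least 5 list UMIs and 10216 CPM without Schwann-marked nuclei. The Schwann sum was 2260 CPM without the untreated and 4088 CPM without the denervated library, 4870, 2736 and 390 CPM under the other changes in that order. The share of members with a held-out marker, 89.9%, was 82.7% thinned to 500 and 79.8% thinned to 300 UMIs.

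The number of genes past the fold followed the number of genes and nuclei used, given here for sham over untreated, denervated over untreated and denervated over sham. Over all members 199, 178 and 223 genes became 494, 447 and 627 without a minimum of UMIs, 44, 33 and 49 with at least 50 UMIs, 41, 48 and 55 with no UMI of the other lists, 125, 105 and 128 with at least 5 list UMIs, 88, 53 and 94 in stroma-marked nuclei and 34, 46 and 35 in Schwann-marked nuclei. In stroma-marked nuclei they became 370, 228 and 327 without a minimum, 24, 12 and 30 with at least 50 UMIs and 32, 20 and 33 with no UMI of the other lists. In Schwann-marked nuclei they became 114, 173 and 154, then 4, 13 and 6, then 12, 16 and 12, and 9, 29 and 10 with at least 5 list UMIs.

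Directions turned for sham over untreated in Schwann-marked nuclei against all members for the rule genes Col1a1 (1.06) and Col1a2 (0.51), and for Lama2 (-0.52) and Sfrp5 (0.076). With no UMI of the other lists, Mgp in all members turned to 0.30, Hspa1a in Schwann-marked nuclei to -1.19, and Col27a1 for denervated over untreated in stroma-marked nuclei to 0.40. Scn7a for denervated over untreated was 1.29 in stroma-marked nuclei. The cause was not tested.

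No paired analysis was possible because each condition had 1 library. Depth and 178 nuclei limit every value, as does the pooling of mice in the untreated and denervated libraries. A condition cannot be told apart from its library.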
